A study of Mus musculus with 2931 samples.

Results

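Chemokines and their receptors were followed in single endothelial cells (EC) sorted from the distal lung of mice before birth, after birth and after neonatal hyperoxia. The 52 genes described here are those of the 18072 gene symbols in the count table whose names follow the systematic series Cxcl, Ccl, Cx3cl, Cxcr, Ccr, Cx3cr and Ackr1 to Ackr4. They comprise 32 ligands and 20 receptors, of which 16 are signalling receptors and 4 are atypical receptors. The 2931 cells came from 10 named mice, 1 female and 1 male in each of 5 groups: 1 shortly before birth (E18.5), 3 raised in normal air and taken on P1, P7 or P21, and 1 exposed to hyperoxia and taken on P7. No treatment other than hyperoxia and no transgene is named for any group. The strain, the oxygen level and its duration are not given in the sources used here. They also do not say if each named mouse was a single animal. Cells were sorted through gates labelled CD31, CD45 or mesench. The mouse is the replicate throughout (n = 2 per group), so p-values measure the spread between mice of both sexes.

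Chemokines are small secreted proteins that direct the migration of leukocytes and of some non-immune cells, including endothelial cells. Many bind heparan sulfate on the endothelial surface and act there on G protein-coupled receptors. Atypical chemokine receptors bind chemokines without signalling through G proteins, and they take up, degrade or transport their ligands. In the lung vasculature, CXCL12 acts through CXCR4 and is scavenged by ACKR3, and the pair is known for its roles in arterial growth and leukocyte retention.

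The libraries were deep and made without molecular identifiers, with 42095 to 2967985 reads per cell and a median of 621406. The median per mouse ran from 188609.5 reads in the P7 male to 928377 in the P7 female, and no cell title occurred more than once. Shares of cells with a read are therefore given after each cell was thinned to 50000 reads, with 11 shallower cells left out, and levels are reads as CPM, scaled to 1000000 reads, of the sum per mouse. The authors' 10 subtype labels were checked against marker lists in 7 classes, with the Car4- labels and the arterial labels each pooled and Proliferative venous EC left out. No list was made for embryonic EC. The summed level of 6 pan-endothelial markers was 6219 to 18204 CPM in every mouse and class, that of 5 Car4+ markers was 7333 to 14782 CPM in Car4+ capillaries, that of 5 arterial markers was 3530.4 to 4658 CPM in arterial EC and at most 2096 elsewhere, and that of 6 lymphatic markers was 9225 to 10243 CPM in lymphatic EC and at most 4253 elsewhere. The 5 venous markers overlapped between classes, at 1855 to 11218 CPM in Venous EC, 859 to 3064 in Lymphatic EC and 502 to 2473 in arterial EC. The 5 Car4- markers overlapped too, at 5651 to 9029 CPM in Car4- capillaries and up to 6116 in embryonic EC, 6136 in Proliferative EC and 6071 in Venous EC. The 5 cell cycle markers summed to 3622 to 6383 CPM in Proliferative EC, 694 to 1025 in Lymphatic EC and at most 298 elsewhere. The summed myeloid markers reached at most 181 CPM, the platelet markers at most 91.2 and the epithelial markers at most 353. Mesenchymal markers reached 447 CPM in arterial EC and 376 in Proliferative EC. Labels named for marker genes rest on expression in the same cells, so differences between labels are described with no test. Wherever a level falls, fewer cells with the transcript and less transcript per cell cannot be told apart from the sum alone.

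Most of the chemokine system was scarcely transcribed in these cells. The 52 genes together took 2036010 reads, or 0.0987% of all reads, and 2 of them, Cxcl12 and Ackr3, took 75.6% of that. Each of 32 genes had fewer than 1000 reads over all cells (range 2 to 759) and was found in at most 0.616% of thinned cells. These 32 include 14 of the 16 signalling receptors, for example Ccr2, the monocyte receptor for Ccl2, with 27 reads, Ccr7, the receptor for Ccl19 and Ccl21, with 28 reads, and Cxcr3, the receptor for Cxcl9 and Cxcl10, with 93 reads. Only 8 genes had a read in at least 5% of thinned cells, namely Ackr3 (46.1%), Cxcl12 (28.9%), Ackr2 (25.2%), Cx3cl1 (13.2%), Cxcl16 (7.64%), Ccl25 (5.79%), Cxcr4 (5.68%) and Ackr4 (5.62%). By class of protein, the 4 atypical receptors had 775618 reads and the 16 signalling receptors 9056. The 11 homeostatic ligands had 1079408 reads, the 2 membrane-anchored ligands 118021, the 3 neutrophil-attracting CXC ligands 35577, the 2 interferon-inducible ligands 10029 and the 14 inflammatory CC ligands 8301. Reads thus lay mainly in 1 homeostatic ligand and in scavenging receptors, with few in signalling receptors.

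**Figure D1:**
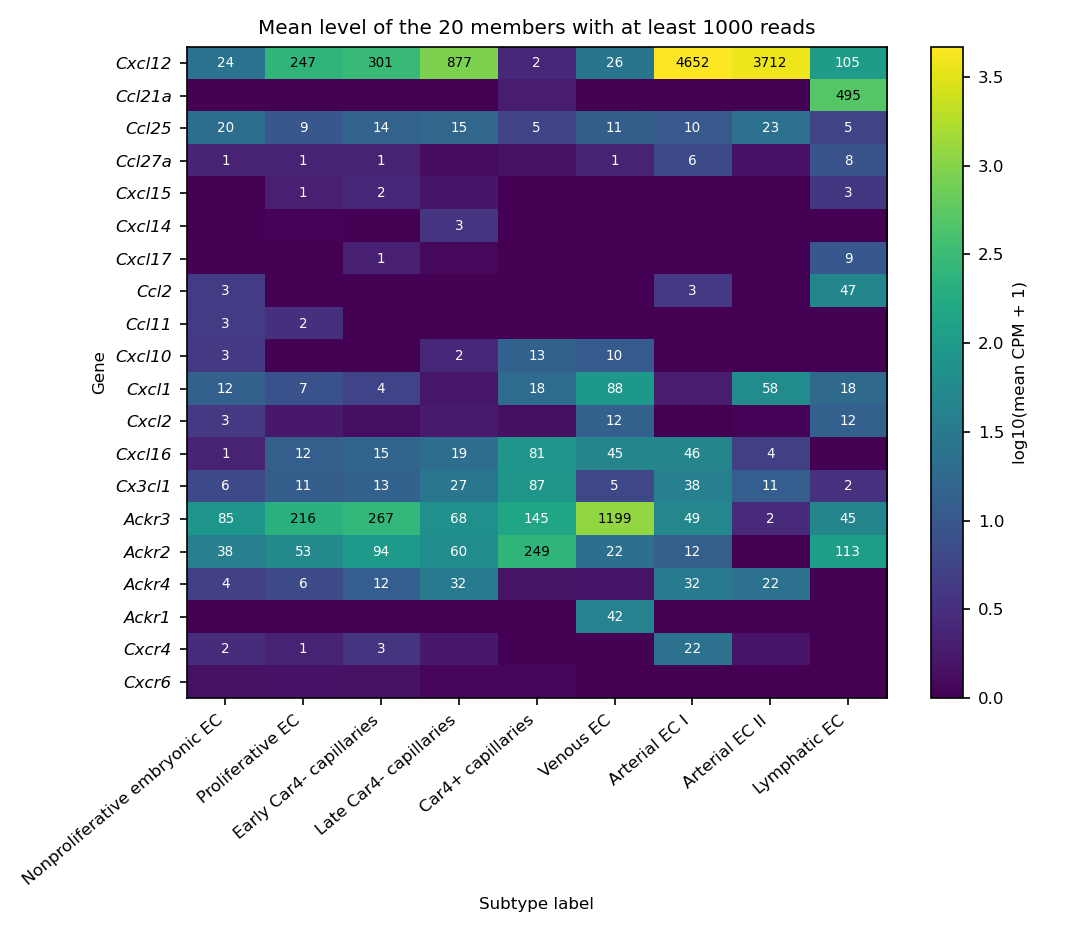
Mean level (CPM over mice holding at least 8 cells of a label, colour on a log scale) of the more abundant chemokine and receptor genes, 1 gene to a line and 1 subtype label to a column. Cxcl12 is highest in the arterial labels, Ackr3 in Venous EC, Ackr2 and Cx3cl1 in Car4+ capillaries and Ccl21a in Lymphatic EC.

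The promoters of 4 genes are shown because these genes stand for the patterns described here: a ligand at high level in whole subtypes (Cxcl12), a scavenger found in nearly all venous cells (Ackr3), and inducible ligands present in scattered cells (Cxcl1, Cxcl10). Each sequence covers 250 bases before to 50 bases after the start of the gene in RefSeq (GRCm38.p6) and is written 5′ to 3′ on the gene's strand. Capitals mark the GC box (GGGCGG on either strand) in Cxcl12, the GC box and the TATA box (TATAAA) in Ackr3, the kB motif in Cxcl1, and the kB motif and the interferon-stimulated response element (ISRE) in Cxcl10.
Cxcl12, chr6:117168285-117168584, plus strand: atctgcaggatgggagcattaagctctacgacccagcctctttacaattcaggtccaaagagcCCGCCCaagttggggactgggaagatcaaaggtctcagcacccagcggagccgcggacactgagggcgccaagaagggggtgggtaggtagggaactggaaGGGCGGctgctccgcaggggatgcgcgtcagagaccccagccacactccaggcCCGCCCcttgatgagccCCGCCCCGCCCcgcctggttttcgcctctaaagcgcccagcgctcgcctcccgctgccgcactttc
Ackr3, chr1:90203730-90204029, plus strand: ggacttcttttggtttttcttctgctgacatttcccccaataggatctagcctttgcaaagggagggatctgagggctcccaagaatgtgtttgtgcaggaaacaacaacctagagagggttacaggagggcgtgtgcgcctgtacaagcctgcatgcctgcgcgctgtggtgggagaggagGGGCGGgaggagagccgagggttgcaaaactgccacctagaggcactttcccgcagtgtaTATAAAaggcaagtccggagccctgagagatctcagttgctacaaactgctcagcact
Cxcl1, chr5:90890995-90891294, plus strand: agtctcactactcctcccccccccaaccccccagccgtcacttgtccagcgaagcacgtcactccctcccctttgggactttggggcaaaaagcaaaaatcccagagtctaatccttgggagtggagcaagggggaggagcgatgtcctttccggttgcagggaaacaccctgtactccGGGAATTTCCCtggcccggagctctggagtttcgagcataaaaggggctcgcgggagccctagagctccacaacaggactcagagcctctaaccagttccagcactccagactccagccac
Cxcl10, chr5:92348840-92349139, minus strand: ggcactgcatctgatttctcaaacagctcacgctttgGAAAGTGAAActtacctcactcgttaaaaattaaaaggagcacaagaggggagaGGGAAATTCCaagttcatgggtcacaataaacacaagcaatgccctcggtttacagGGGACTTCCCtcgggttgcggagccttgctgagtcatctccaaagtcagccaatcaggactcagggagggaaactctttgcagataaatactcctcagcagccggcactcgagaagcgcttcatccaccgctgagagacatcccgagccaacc
The Cxcl12 window held 5 GC boxes, 2 of them overlapping, with a GC content of 64.7% and 20 CpG dinucleotides. A GC box was present in 35.7% of all 32851 RefSeq promoter windows of this length and in 9 of the 43 windows of the 39 chemokine and receptor genes that the table holds. The Cxcl1 window held 2 overlapping kB matches and the Cxcl10 window 2 kB matches and 1 ISRE. A kB match was present in 4.51% of all windows and in 9 of the 43, and an ISRE in 3.44% of all windows and in 3 of the 43. Both strands were searched, and a match is a run of letters and not a bound site.

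Cxcl12 (ENSMUSG00000061353.11, chr6:117168535-117181367 in GENCODE M21), the homeostatic ligand of CXCR4, was an arterial transcript in these cells. In Arterial EC I its level was 4652 ± 2261 CPM (SD, n = 7 mice with at least 8 cells), and 93.5% of thinned cells held a read. The female and male mice stood at 4762 and 1221 CPM at E18.5, 2514 and 8232 at P1, and 5746 and 5099 at P7 after hyperoxia, and the P7 female in air at 4988. All 42 cells of Arterial EC II with thinned reads held Cxcl12, at 3712 CPM in the 1 mouse with enough cells. Next in order came Late Car4- capillaries (877 ± 339 CPM, SD, n = 5, 54.2% of cells) and Early Car4- capillaries (301 ± 197 CPM, SD, n = 6, 31.3%). The level in Arterial EC I was above that in Early Car4- capillaries in 5 of 5 mice holding both, and above that in Late Car4- capillaries in 3 of 3. Proliferative EC ranged from 2.87 to 1058 CPM over 8 mice and overlapped with both Car4- labels and with Lymphatic EC (105 ± 206 CPM, SD, n = 4). The lowest levels were in Venous EC (26 ± 29.8 CPM, SD, n = 9), embryonic EC (24.2 ± 11.9 CPM, SD, n = 2) and Car4+ capillaries (1.52 ± 2.08 CPM, SD, n = 8, 1.81% of cells). Venous and embryonic EC did not differ beyond their spread. Early Car4- capillaries stood above Car4+ capillaries in 6 of 6 mice, so the capillary classes were far apart for this ligand.

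The 2 receptors of Cxcl12 were highest in different subtypes, Cxcr4 in arterial and Ackr3 in venous cells. Cxcr4 (chr1:128588199-128592293), its signalling receptor, was low but also arterial, at 22.1 ± 21 CPM (SD, n = 7) in Arterial EC I with a read in 35.5% of cells. It reached 2.62 CPM in Early Car4- capillaries, 0.0608 CPM in Venous EC and 0 in Lymphatic EC (0 of 82 cells, which allows a share of up to 3.66%, for counting error only). Ackr3 (ENSMUSG00000044337.5, chr1:90203980-90216751), an atypical receptor that scavenges CXCL12, was highest in Venous EC, at 1199 ± 992 CPM (SD, n = 9) with a read in 98.5% of cells. The venous values of the female and male mice were 484 and 334 CPM at E18.5, 999.6 and 221 at P1, 2944 and 1194 at P7, and 2753 and 840.3 after hyperoxia, and that of the P21 female was 1024. The female stood above the male in each of these 4 groups. All 10 cells labelled Proliferative venous EC, which came from both hyperoxia mice, also held Ackr3 reads. Venous Ackr3 exceeded the level in Arterial EC I in 7 of 7 mice, in Early Car4- capillaries in 6 of 6, in Car4+ capillaries in 7 of 7 and in Proliferative EC in 8 of 8. Early Car4- capillaries (267 ± 205 CPM), Proliferative EC (216 ± 161) and Car4+ capillaries (145 ± 106) followed and overlapped with each other. Arterial EC I held only 49.1 ± 50.4 CPM of Ackr3. Per kilobase of exon, arterial Cxcl12 stood at 569 CPM and venous Ackr3 at 358 CPM.

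**Figure D2:**
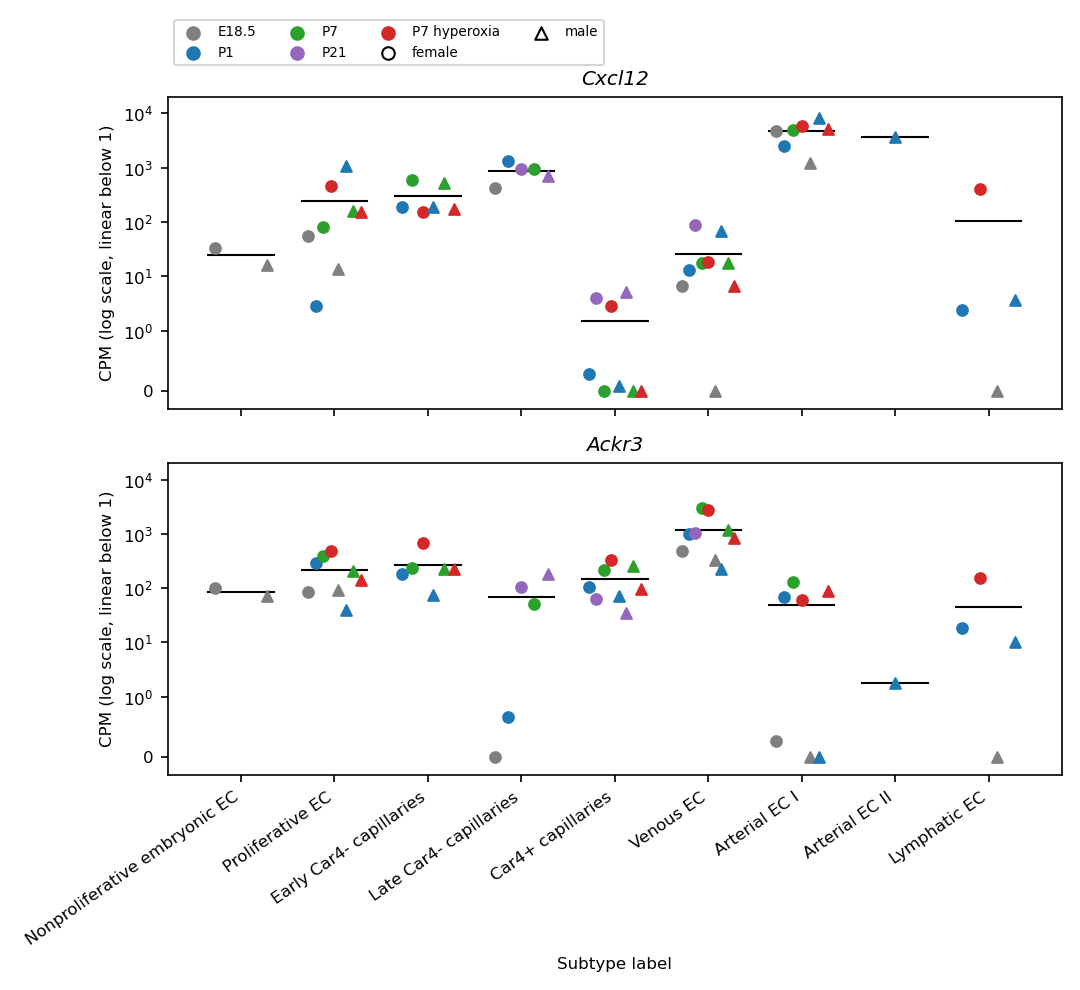
Level of Cxcl12 (top) and Ackr3 (bottom) in each subtype label, in CPM on a log axis that is linear below 1. There is 1 point per mouse holding at least 8 cells of the label. Arterial EC I has the highest mean for Cxcl12, with a lowest mouse at 1221 CPM that overlaps with Late Car4- capillaries, and Venous EC has the highest mean for Ackr3, with a lowest mouse at 221 CPM that overlaps with Early Car4- capillaries, Car4+ capillaries and Proliferative EC.

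The 3 other atypical receptors each had their own distribution. Ackr2 (ENSMUSG00000044534.8, chr9:121898355-121911074), a scavenger of inflammatory CC chemokines best known from lymphatic endothelium, was highest in Car4+ capillaries at 249 ± 161 CPM (SD, n = 8) with a read in 55.4% of cells. Its range there was 64.1 to 515 CPM, which overlapped with that of Lymphatic EC (113 ± 137 CPM, SD, n = 4, 34.1% of cells) and of Early Car4- capillaries (94.1 ± 45 CPM, SD, n = 6). Within mice, Ackr2 was higher in Car4+ than in Early Car4- capillaries in 5 of 6 and than in Lymphatic EC in 2 of 3. Ackr4 (chr9:104084157-104126933), which scavenges CCL19, CCL21 and CCL25, was found in Arterial EC I (32.4 ± 44.5 CPM), Late Car4- capillaries (31.8 ± 37.2) and Early Car4- capillaries (11.5 ± 7.39). It was nearly absent from Car4+ capillaries (0.536 CPM), Venous EC (0.588) and Lymphatic EC (0.0162). Ackr1 (chr1:173331886-173333750), the venular receptor that carries chemokines across the endothelium, was found in 11 cells of the whole set. Of these, 8 were Venous EC, at P1 or after hyperoxia, and each of the other 3 held 1 read. In the hyperoxia male, 1 venous cell held 1537 of the 1538 reads.

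Both membrane-anchored ligands had their highest mean in Car4+ capillaries. Cx3cl1 (chr8:94772009-94782427), or fractalkine, the ligand of CX3CR1 on monocytes, stood at 86.9 ± 50.5 CPM (SD, n = 8) with a read in 39.5% of these cells. It was lower in Arterial EC I (38.5 ± 42.4 CPM, SD, n = 7), Late Car4- capillaries (26.6) and Venous EC (5.23), and the ranges of Car4+ capillaries and Arterial EC I overlapped. Within mice, Cx3cl1 was higher in Car4+ capillaries than in Arterial EC I in 5 of 5, than in Late Car4- capillaries in 4 of 4 and than in Venous EC in 7 of 7. Cxcl16 (chr11:70453983-70459984), the ligand of CXCR6 on T cells and natural killer cells, stood at 81.1 ± 105 CPM (SD, n = 8) in Car4+ capillaries. The P21 mice there held 192 and 282 CPM, the P7 male 107, and the other 5 mice 0.298 to 31.2. Venous EC (45.1 ± 50.7 CPM) and Arterial EC I (46.3 ± 75.3) did not differ from Car4+ capillaries beyond this spread (higher in Car4+ in 4 of 7 and 3 of 5 mice), while Lymphatic EC held 0.0143 CPM.

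Lymphatic EC were set apart by Ccl21a (chr4:42772860-42773993), the ligand that draws CCR7-bearing dendritic cells into lymphatic vessels. Its level was 495 ± 217 CPM (SD, n = 4), with a read in 95.1% of lymphatic cells and a mean of less than 1 CPM in every other label with enough cells. The values were 724 and 637 CPM in the P1 female and male, 291 in the E18.5 male and 329 in the female after hyperoxia. Ccl21c, a near-identical copy, was found in 51 lymphatic cells at 2.18 CPM, and the division of reads between the copies is uncertain. Ccl2, the monocyte attractant, was also mainly lymphatic, at 47.1 ± 28.7 CPM with a read in 15.9% of cells. Ccl25, the ligand of CCR9, was low in every label, with means of 4.65 to 23 CPM.

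Inducible ligands came from few cells. Cxcl1, a neutrophil attractant, was found in 88 cells, and its mean over mice was highest in Venous EC, at 88.5 ± 122 CPM (SD, n = 9) with a read in 8.96% of cells. The share was larger in Arterial EC II (21.4%, with 57.8 CPM in the 1 mouse with enough cells) and Lymphatic EC (11%, with 17.5 ± 15.8 CPM, SD, n = 4). Cxcl10, an interferon-inducible ligand, was found in 29 cells, of which 1 held 39.7% of its 9993 reads. Of the signalling receptor Cxcr6, 75% of all reads came from 1 cell. For such genes a mouse's level is set by the cells that happened to be sorted.

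Development was examined first across birth, between the label Nonproliferative embryonic EC at E18.5 and the Car4- capillaries (Early and Late labels together) at P1. By edgeR, Cxcl12 was the only chemokine or receptor called in any comparison, and it was called here by DESeq2 and limma too. DESeq2 also called Cxcl10 here (adjusted p 0.00968), a gene with a read in 1 cell of each E18.5 mouse. Cxcl12 was lower in embryonic EC, with 32.6 and 15.8 CPM in the E18.5 female and male. The P1 female and male held 274 and 185 CPM, and the groups did not overlap. The log2 difference was -3.32 (SE 0.44), with an adjusted p of 0.00224 by edgeR's quasi-likelihood test with Benjamini-Hochberg adjustment over all genes. Reads were present in 14 of 134 and 12 of 168 embryonic cells and in 62 of 181 and 35 of 122 cells at P1. After leaving out each mouse's top cell the levels were 25.7 and 9.79 CPM against 229 and 163, and the females, sequenced in 1 run, held 32.6 and 276 CPM. This comparison changes the label and the age together, and the parts of each cannot be told apart. Markers of mesenchyme, another known source of Cxcl12, summed to 25 and 19.9 CPM in embryonic EC and 8.71 and 13.2 CPM at P1, and cell cycle markers to 252 and 298 CPM against 32 and 48.9, and their part was not tested. Over all cells without regard to label, a thinned Cxcl12 read was found in 13.9% and 9.97% of cells at E18.5, 26.1% and 24.1% at P1, 30% and 41.6% at P7, and 56.6% and 37.3% at P21. The all-cell CPM did not follow that order, at 375 and 167 CPM at E18.5 against 283 and 570.3 at P1. Of 23 chemokine and receptor genes tested across birth, 1 was called (all genes, 0.494%) and 3 had an unadjusted p under 0.05 (all genes, 9.42%).

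In Car4- capillaries the level of Cxcl12 was higher on each later day, and neither step passed edgeR's test. The female and male held 274 and 185 CPM at P1, 638 and 517 at P7, and 954 and 713 at P21, so the groups did not overlap at either step. From P1 to P7 the log2 difference was 1.25 (SE 0.36), with an edgeR adjusted p of 0.385 and a DESeq2 adjusted p of 0.0296. From P7 to P21 it was 0.64 (SE 0.35), with an edgeR adjusted p of 0.548. Among CD31-gate cells alone, the P21 female and male held 866 and 762 CPM of Cxcl12, against 586 and 222 at P7. In the P7 male 57.6% of the Cxcl12 reads came from 1 cell sorted through the CD45 gate, and without its top cell the level was 239 CPM, which lay below the P1 female. Ackr2 was 52.2 and 32.2 CPM at P1, 137 and 93.8 at P7, and 65.7 and 51.3 at P21. Its P7 mice stood above those of P1 and P21, with log2 differences of 1.38 (SE 0.41) from P1 to P7 and -0.88 (SE 0.40) from P7 to P21, edgeR adjusted p 0.385 and 0.47. Ackr3 was 166 and 73.5 CPM at P1, 209 and 219 at P7, and 102 and 183 at P21, and both P21 values lay below both P7 values (log2 -0.44, SE 0.50, edgeR adjusted p 0.818).

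The P21 Car4- capillaries held more of the membrane-anchored ligands and of Ackr4 than those of P7, without a call by edgeR. Cxcl16 was 40.3 and 39.4 CPM at P21 against 14.8 and 5.57 at P7 (log2 2.07, SE 0.72, edgeR adjusted p 0.344), and the males within 1 run held 55.2 and 7.13 CPM. Cx3cl1 was 63 and 34.7 CPM against 14.8 and 12.2 (log2 1.95, SE 0.75, edgeR adjusted p 0.411). Ackr4 was 98 and 34.5 CPM against 1.38 and 17.9 (log2 2.88, SE 1.00, edgeR adjusted p 0.344), but the males within 1 run held 28.7 and 22.9 CPM. The groups of these 3 genes did not overlap, which was a condition for naming them at this step. Lack of overlap was found for 13 of the 21 genes of the family tested. The share over all genes was not computed, so this count cannot be read as a trait of the family. Of the 21 chemokine and receptor genes tested in Car4- capillaries, 0 were called by edgeR from P1 to P7 (all genes, 0%) and 4 had an unadjusted p under 0.05 (all genes, 11.3%). From P7 to P21, 0 were called by edgeR (all genes, 0.266%) and 7 had an unadjusted p under 0.05 (all genes, 10.5%), with a median log2 difference of 1.95 against 0.06 over all genes. Limma on mean CPM called 0 at both steps. DESeq2 called 2 from P1 to P7, Cxcl1 and Cxcl12, and 5 from P7 to P21, Cxcl16 (adjusted p 0.0363), Ackr4 (adjusted p 0.0303), Cxcl1, Cxcl10 and Cxcl14. The shares over all genes given here and below are those of edgeR. The share of all genes that DESeq2 called is not given, so its counts cannot be set against a background. At P7, 162 of 206 cells of the female and 114 of 116 of the male had the Early label. At P21, 268 of 272 and 265 of 268 had the Late label, so the label and the day cannot be told apart. The sort gate differed as well, with 51 and 84 P21 cells from gates other than CD31 against 9 and 5 at P7. Among CD31-gate cells alone, Cxcl16 was 49.1 and 55.2 CPM at P21 against 15.5 and 7.13 at P7. Cx3cl1 was 63.3 and 39 CPM there against 15.5 and 15.4, and Ackr4 104 and 28.7 against 1.44 and 22.9. The P21 cells also held more heat shock and immediate early transcripts, with 3 of 9 listed genes called, Hspa1a, Hspa1b and Hspb1, and summed levels of 5592 and 5798 CPM against 1400.5 and 2784 at P7, and the part of this in the result was not tested.

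**Figure D3:**
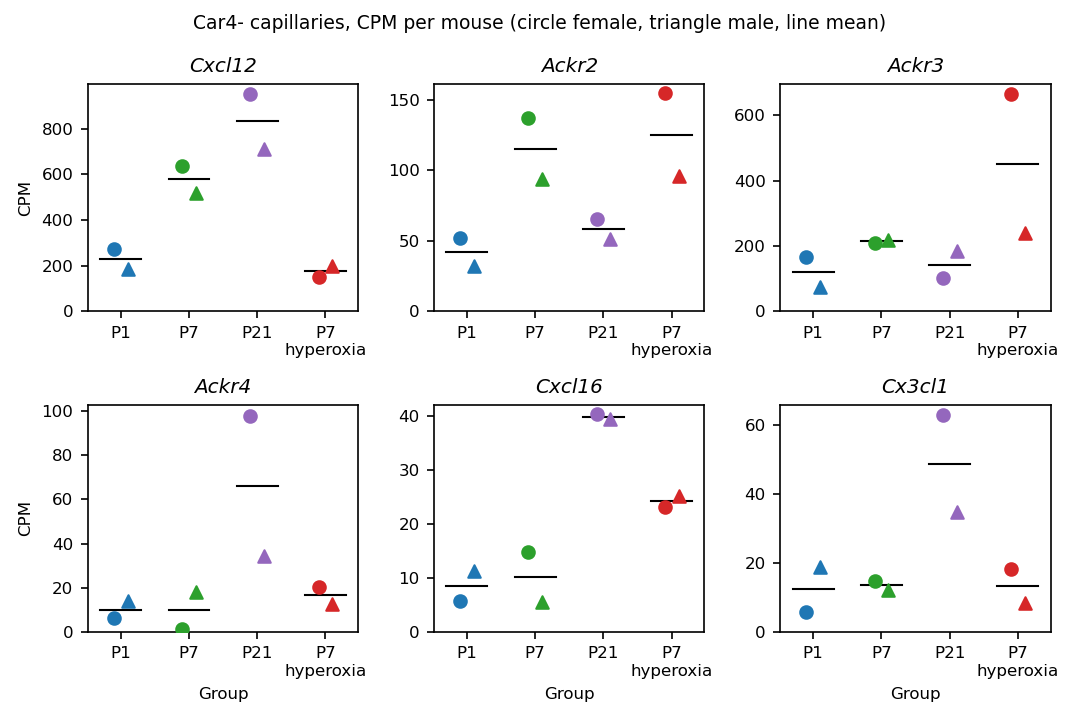
Levels in Car4- capillaries (CPM, linear axis) of chemokine and receptor genes in each group, with 1 point per mouse and the female and male drawn with different markers. For Cxcl12 the P1 mice stand at 274 and 185 CPM, the P21 mice at 954 and 713, and the hyperoxia mice at 151 and 198.

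Car4+ capillaries had 9 genes of the family tested. From P1 to P7, 0 were called by edgeR (all genes, 0%) and 3 had an unadjusted p under 0.05 (all genes, 6.28%), and from P7 to P21, 0 were called (all genes, 0.00814%) and 4 had an unadjusted p under 0.05 (all genes, 5.24%). Cx3cl1 was 44.1 and 11.8 CPM at P1 and 97.4 and 71.5 at P7, without overlap (log2 1.79, SE 0.78, edgeR adjusted p 0.73). Ackr3 was 214 and 259 CPM at P7 and 62.7 and 34.2 at P21 (log2 -2.41, SE 0.69, edgeR adjusted p 0.858). One cell gave 96.4% of the P7 male's Ackr3 reads, and without it the level was 11.4 CPM, below both P21 mice. Cxcl1 and Cxcl10 had higher levels at P21, at 143 and 1.77 CPM and at 79.2 and 23.3 CPM, against at most 0.024 CPM at P7. These came from 3 cells each, 1 female and 2 male cells with Cxcl1 and 2 female and 1 male cells with Cxcl10. Of the heat shock and immediate early genes, 7 of 9 also had higher levels at P21 at an unadjusted p under 0.05, with 0 called, and their part in the result was not tested. DESeq2 called 1 gene from P1 to P7 and 2 from P7 to P21, and limma 0.

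Venous and arterial EC held few cells per mouse. In Venous EC, 12 genes of the family were tested and 0 were called by edgeR from E18.5 to P1 (all genes, 0.0162%) or from P1 to P7 (all genes, 0%), with 2 at an unadjusted p under 0.05 at each step (all genes, 8.71% and 3.21%). Ackr1 was 0 in both E18.5 and both P7 mice and 163 and 7.6 CPM in the P1 female and male, from 3 cells and 1 cell. The P1 level was at least 205-fold higher than at E18.5 and at least 334-fold higher than at P7, taking 3 reads per group in place of 0. Those bounds rest on 4 cells, and edgeR's adjusted p was 0.179 and 1. Venous Ackr3 was 999.6 and 221 CPM at P1 and 2944 and 1194 at P7, without overlap (log2 1.80, SE 0.76, edgeR adjusted p 1). In arterial EC (both labels together), 10 genes of the family were tested and 0 were called by edgeR from E18.5 to P1 (all genes, 0.0167%) or from P1 to P7 (all genes, 0%), with 1 and 0 at an unadjusted p under 0.05 (all genes, 3.88% and 3.2%). Cxcl12 was 5327 and 2334 CPM at E18.5, 2254 and 4832 at P1, and 5641 and 1464 at P7, so the arterial groups overlapped at both steps. Cxcl16 was 0 in both E18.5 mice and 107 and 2.93 CPM at P1, from 3 cells and 1 cell, at least 387-fold higher against the same floor. In Proliferative EC from E18.5 to P7, 0 of 14 genes were called by edgeR (all genes, 0.0458%) and 1, Cxcl2, had an unadjusted p under 0.05 (all genes, 5.25%). DESeq2 called 2 and 1 genes at the venous steps, 1 and 0 at the arterial steps and 1 in Proliferative EC, and limma 0 at all of them.

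The response to hyperoxia was read at P7, and its controls are the same P7 air mice that enter the comparisons of days. In Car4- capillaries Cxcl12 was 151 and 198 CPM in the hyperoxia female and male against 638 and 517 CPM in air, without overlap. The log2 difference was -1.75 (SE 0.36), the edgeR adjusted p was 0.35 and the DESeq2 adjusted p was 0.000374. A thinned read was found in 23.5% and 19.7% of hyperoxia cells against 34.5% and 52.2% of air cells. Among CD31-gate cells alone the levels were 158 and 198 CPM against 586 and 222, and the males, which shared a run, held 198 and 222 CPM. The size of the difference in the males therefore depends on the 1 CD45-gate cell named above. The share of cells with a read was lower after hyperoxia in both sexes. Mesenchymal markers summed to 47.9 and 22.1 CPM after hyperoxia and 20.4 and 27.4 CPM in air, with all 7 genes detected in each mouse. Among Early Car4- capillaries alone, chosen as an alternative after seeing the data, the log2 difference was -1.80 with 149.7 and 175 CPM against 593 and 513.

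Ackr3, its scavenger, had the opposite order in Car4- capillaries, at 665 and 238 CPM after hyperoxia against 209 and 219 in air (log2 1.04, SE 0.51, edgeR adjusted p 0.887). The female was high, and the male after hyperoxia stood below the 271 CPM of the CD31-gate cells of the air male. Within the hyperoxia mice, Ackr3 was found in 61.1% and 34.6% of Car4- cells with Cxcl12 and in 83.8% and 69.8% of those without. In air at P7 these shares were 31% and 61% with Cxcl12 and 37.8% and 64.8% without. Cxcr4 was found in 19.4% and 50% of the hyperoxia cells with Cxcl12 and in 5.98% and 13.2% of those without. In air at P7 these shares were 2.82% and 6.78% with Cxcl12 and 0% and 1.85% without, in the same direction. The shares with Cxcl12 were higher at P1 (6.9% and 16.7% against 4.92% and 5.43%) and P21 (5.85% and 4.65% against 2.38% and 1.44%) as well. The level of Cxcr4 was 1.57 and 8.91 CPM after hyperoxia and 0.683 and 0.821 in air (log2 2.79, SE 1.74, edgeR adjusted p 0.95). Ackr2 hardly differed, at 155 and 95.9 CPM against 137 and 93.8. Of 21 genes of the family tested, 0 were called by edgeR (all genes, 0.0136%) and 6 had an unadjusted p under 0.05, 3 in each direction (all genes, 5.52%). Apart from Cxcl12 these 6 were Cxcl1, Cxcl17, Ccl9, Cx3cr1 and Cxcr6, each found in at most 4 cells of any mouse. DESeq2 called 4 genes, Cxcl12, Cxcl1, Cxcl17 and Cxcl2, the last of which was not among the 6, and limma called 0.

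In the other classes edgeR called no gene of the family. DESeq2 called Cxcl1 in Proliferative EC and Ackr1 and Cxcl2 in Venous EC. Cxcl12 in arterial EC was 5928 and 3022 CPM after hyperoxia and 5641 and 1464 in air, with overlap (log2 0.32). Venous Ackr3 was 2753 and 840.3 CPM against 2944 and 1194, also with overlap. Venous Ackr1 was 149 and 55.7 CPM in the hyperoxia female and male, against 0 and 0 in air. Reads lay in 2 cells of each hyperoxia mouse, but 1 cell held 1917 of 2308 in the female and 1 held 1537 of 1538 in the male. The level was at least 930.3-fold higher by the 3-read floor (edgeR adjusted p 1), a bound that rests on these few cells. The number of genes called by edgeR was 0 of 9 in Car4+ capillaries (all genes, 0%), 0 of 14 in Proliferative EC (all genes, 0%), 0 of 12 in Venous EC (all genes, 0%) and 0 of 10 in arterial EC (all genes, 0%). At an unadjusted p under 0.05 there were 0 (all genes, 6.16%), 1 (all genes, 2.59%), 2 (all genes, 2.69%) and 0 (all genes, 2.97%). DESeq2 called 0, 1, 2 and 0, and limma 0 in each.

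The difference between classes in the response to hyperoxia was tested with the mouse as a term. For Cxcl12 the effect in arterial EC exceeded that in Car4- capillaries by 2.30 on the log2 scale (SE 0.71), and that in Proliferative EC exceeded it by 2.93 (SE 0.74), with an edgeR adjusted p of 1 for both and DESeq2 adjusted p-values of 0.0467 and 0.000774. Both differences use the same effect in Car4- capillaries, whose size in the males depends on the 1 CD45-gate cell named above. Among CD31-gate Car4- cells the males held 198 CPM after hyperoxia and 222 in air. For Ackr3 the effect in Venous EC was lower than in Car4- capillaries by a log2 of -1.16 (SE 0.46), that in Car4+ capillaries by -1.52 (SE 0.50), that in Proliferative EC by -0.98 (SE 0.40) and that in arterial EC by -2.38 (SE 0.60). The edgeR adjusted p was 1 for all 4, and DESeq2 called the arterial one (adjusted p 0.0468). The 4 differences use the same effect in Car4- capillaries and are not independent results. Among CD31-gate Car4- cells the females held 656 CPM of Ackr3 after hyperoxia and 203 in air, and the males 238 and 271. The Car4+ difference also uses the P7 male in which 1 cell gave most of the Ackr3 reads, as given above. Against Car4- capillaries, edgeR called 0 of 13 genes for Car4+ capillaries, 0 of 14 for Proliferative EC, 0 of 16 for Venous EC and 0 of 14 for arterial EC (all genes, 0% in each). At an unadjusted p under 0.05 there were 2 (all genes, 3.31%), 3 (all genes, 3.37%), 3 (all genes, 3.61%) and 4 (all genes, 2.56%). DESeq2 called 0, 1, 1 and 3 of them and limma 0.

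**Figure D4:**
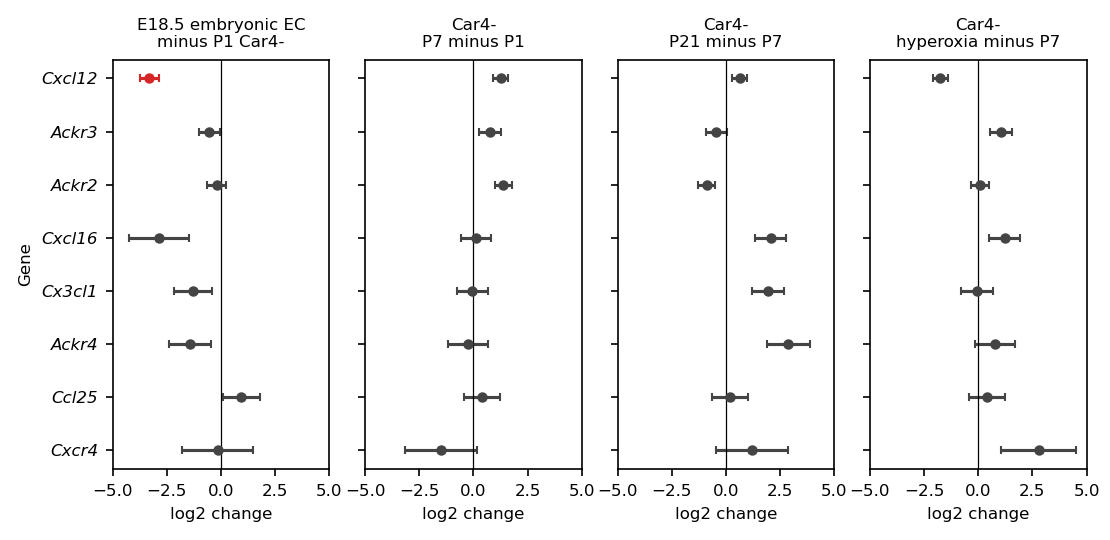
Log2 difference (point) with its standard error (bar) from the edgeR fit for the 8 chemokine and receptor genes with a read in at least 5% of thinned cells, in the comparisons of days and of hyperoxia. A red point marks an adjusted p under 0.05, and the single one is Cxcl12 in embryonic EC of E18.5 against Car4- capillaries of P1, at -3.32.

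Genes that act with chemokines were read from lists of pathway genes. Of the signal transduction list (G protein subunits, G protein-coupled receptor kinases, arrestins and their effectors), 26 genes were tested in Car4- capillaries. By edgeR, 0 were called in any of the 15 comparisons (all genes, 0% to 0.494% by comparison). Of 15 heparan sulfate genes tested there, 1 was called by edgeR at 2 of the steps, against 0.266% of all genes from P7 to P21 and 0.494% across birth: Hs3st1, a sulfotransferase that modifies the chains to which chemokines bind. It rose from 34.7 and 42.6 CPM at P7 to 204 and 147 CPM at P21 (log2 2.29, SE 0.41, edgeR adjusted p 0.045), and it was 0 in both E18.5 mice against 40.8 and 56.7 CPM at P1 (edgeR adjusted p 1.82e-06). Of 7 proteases that shed or trim chemokines, 1 was called by edgeR across birth (all genes, 0.494%). This was Cpm, a carboxypeptidase, which was lower in embryonic EC, at 0.115 and 0.847 CPM against 17.2 and 18.7 (log2 -5.28, SE 1.10, edgeR adjusted p 0.0484). Of the related genes outside the naming series, 2 receptors, Gpr182 and Ccrl2, chosen after their values were seen, were among the more abundant. Xcr1, Cmklr1, Pitpnm3 and Cd74 had label means of at most 5.65, 21, 7.41 and 4.61 CPM. Mif was abundant too, with means of 174 CPM in embryonic EC, 214 in Lymphatic EC and 295 in the 1 mouse of Arterial EC II. Pf4 reached a mean of 70 CPM in Late Car4- capillaries (0 to 329 over mice) and Ppbp 28.6 in Early Car4- capillaries. Their reads there lay in only 10 of 622 and 18 of 841 cells. Platelet markers summed to 0.315 to 82.3 CPM in Car4- capillaries, and their part was not tested. Gpr182, an atypical receptor-like protein, stood at 409 CPM in embryonic EC, 397 in Venous EC and 7.39 in Car4+ capillaries, and Ccrl2, which presents chemerin, at 166 CPM in Late and 94.9 in Early Car4- capillaries and 18 in Car4+ capillaries.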

How the data were processed

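Cells were sorted and sequenced by a plate-based Tn5 transposase protocol, per the labels. The deposited table holds raw read counts per gene and cell. The submitters' processing notes name STAR 2.5.2b, HTSeq 0.10 and the build GRCh38, a human build, although the cells are from mice; no coordinates were taken from the table. Groups, gates, runs and subtype labels came from the labels. Counts were summed per mouse and class (at least 8 cells per mouse) and tested with edgeR 4.0.16 (TMM, low-count filter, quasi-likelihood F test, Benjamini-Hochberg over all genes tested, called at 0.05) in R 4.3.3. The fit shared its spread over the groups of a class. The procedure was tested on simulated data. Alternatives were DESeq2 1.42.0, limma 3.58.1 on log2(mean CPM over cells + 1), RLE scaling, no filter, the CD31 gate alone, thinned cells, sex as a block, each mouse left out, and mice sharing a run. Named genes were those called, those with at least 50 CPM and a read in 25% of a label's thinned cells, and those at unadjusted p under 0.05 without overlap whose higher group had at least 20 CPM; further genes were named after their values were seen. The family, the lists and the tests were chosen with earlier results of these data known. For genes named by lack of overlap, that lack was fixed by the choice and is no further support. Floors cover counting error only. Locations are from GENCODE M21, which placed 51 of the 52 genes.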

Additional observations from a re-analysis of the deposited data

How the results depend on the processing

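None of the 18 named changes reversed direction under the alternatives run. Of their 282 alternative values, 255 were counted as unchanged, 27 passed the threshold only under the alternative and 0 were lost. A loss was possible only for Cxcl12 across birth, the 1 change called by edgeR, so for the rest this result was fixed in advance. Values from mice sharing a run had no p-value, and these and fits without an adjusted p were judged by direction alone. The DESeq2 Wald test gave more calls: in Car4- capillaries 2 from P1 to P7, 5 from P7 to P21 and 4 after hyperoxia, in Car4+ capillaries 1 and 2 at the same steps in age, in Proliferative EC 1 and 1, in Venous EC 2, 1 and 2, in arterial EC 1 from E18.5 to P1, across birth 2, and for the difference of hyperoxia effects 1 in Proliferative EC, 1 in Venous EC and 3 in arterial EC. With no filter on low counts there was 1 call in Car4+ capillaries from P1 to P7 and 1 from P7 to P21, 1 in each of the 3 venous comparisons and 1 in arterial EC from E18.5 to P1. The cause was not tested, and the shares of all genes called under these alternatives are not given. Leaving out each mouse gave 0 to 3 calls in Venous EC from E18.5 to P1, 0 to 1 from P1 to P7 and 0 to 1 after hyperoxia, 0 to 1 in arterial EC from E18.5 to P1, 1 to 2 across birth and 0 to 1 for the Car4+ difference of effects; the other comparisons gave 0 to 0. The venous calls were Ackr1 in each such fit, joined by Ackr2, Cxcl12 or Cxcl1 when an E18.5 mouse was left out. With sex as the replicate block, which pairs the female and the male across groups, the counts were 0 for every comparison but that across birth, with 1 (Cxcl12, -3.35, edgeR adjusted p 0.002). Having 2 mice per group and few arterial and venous cells limits what can be called, and genes found in a few cells depend on those cells.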
